A study of Mus musculus with 4 samples.

Results

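Solute carriers are membrane proteins that move amino acids, sugars, metals, ions, vitamins and mitochondrial metabolites across the plasma membrane or the membranes of organelles. A maturing erythroblast takes up amino acids, glucose and metals for hemoglobin and changes the transporters of its surface as it becomes a red cell. GATA-1 is the zinc finger transcription factor that drives this maturation. The genes described here are those with a symbol of Slc followed by a digit in any of the authors' 6 deposited tables, leaving out Slc4a1, Slc2a3, Slc25a37, Slc25a38 and Slc40a1. There were 47 such genes, out of 52 Slc symbols and 2982 genes in the tables, and GENCODE M21 annotates 371 protein-coding genes of this name pattern. Slc9a3r1 is included by its symbol, although its product is a scaffold protein that binds the tails of transporters and not a carrier.

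The tables hold RNA-seq values of whole cultures of G1E, a murine erythroblast line that descends from embryonic stem cells without GATA-1. The groups were G1E with the mutant form GATA-1 2RA, G1E with the mutant form GATA-1 V205M, G1E with the wild-type form (GATA-1 WT), and the G1E control, and the samples of all 4 groups had been induced with β-estradiol. V205M is a change in the finger of GATA-1 that binds the cofactor FOG-1 and is known to weaken that binding. What the 2RA form alters, how the forms were introduced and how many clones were used is not in the labels. Each group is 1 sample, so no difference between groups has a replicate check, and in bulk RNA fewer cells of a type and less RNA per cell cannot be told apart. Gata1 itself stood at 1421 scaled reads in GATA-1 2RA, 613 in GATA-1 V205M, 2652 in GATA-1 WT and 153 in the G1E control.

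A level is given in scaled reads, the authors' mean of read counts divided by a size factor. The whole reads behind the levels could be recovered, with 1 count column each for GATA-1 2RA and GATA-1 WT and 2 count columns each for GATA-1 V205M and G1E control. Size factors ran from 0.357 to 1.59. A fold is the ratio of the authors' levels, its 95% counting interval comes from the reads summed per group and covers no error other than counting, and a log2 change is that of scaled reads plus 1. The authors listed a gene for a pair of groups when its adjusted p was below 0.01 and its change above 2-fold. A pair not listed for a gene was below those limits or not tested, and a level is known only if the gene was listed for some pair with that group. The rule takes genes because they were listed somewhere, so counts of listed genes describe these libraries and are set beside the same share over the 2982 genes. The erythroid markers fixed for this work (Hbb-b1, Hba-a1, Alas2, Klf1 and Epor) were all listed, with a summed level of 2938 scaled reads in GATA-1 2RA, 633 in GATA-1 V205M and 53866 in GATA-1 WT, and 1998 over the 4 with a level in the G1E control. The sum of GATA-1 2RA rests on Hbb-b1 (2342 scaled reads, against 238 in the control), while Hba-a1 (32.9, against 1291), Alas2 (2.14, against 6.54) and Klf1 (381, against 462) were lower there than in the control. Of 6 mast cell markers 5 were listed, with sums of 2398, 2433 and 183 scaled reads in GATA-1 2RA, GATA-1 V205M and GATA-1 WT, against 5448 in the G1E control. Kit and Cpa3 made up most of the control sum, and Ms4a2, Hdc and Tpsab1 were instead highest in GATA-1 V205M, at 383, 121 and 474 scaled reads, against 140, 29.5 and 55.1 in the control. Of the 6 macrophage and neutrophil markers 0 were listed, and 2 of 6 megakaryocyte and 1 of 4 lymphocyte markers were.

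With wild-type GATA-1, solute carrier genes were listed in both directions. In GATA-1 WT against the G1E control, 19 of the 47 genes were listed higher (40.4%, against 35.4% of all listed genes) and 18 lower (38.3%, against 21.1%). The genes higher by most were Slc38a5, a transporter of glutamine, serine and histidine (log2 change 6.28), and the lysosomal carrier Slc46a3 (2.88). Those lower by most were Slc45a3 (-6.24), a relative of sugar transporters, and the vesicular zinc transporter Slc30a2 (-6.03). In the mutants against the control fewer were listed. GATA-1 2RA had 10 higher (background 21.1%) and 9 lower (background 11.3%), and GATA-1 V205M had 10 higher (background 21.0%) and 7 lower (background 14.4%). These 3 comparisons share the control sample. Against GATA-1 WT, GATA-1 2RA had 9 listed higher (background 14.5%) and 7 lower (background 17.5%), while GATA-1 V205M had 5 higher (background 16.1%) and 12 lower (background 24.5%). Between the mutants, 9 genes were higher (background 15.6%) and 4 lower (background 11.4%) in GATA-1 2RA than in GATA-1 V205M. Most of these shares stood near the background, and the lower genes of GATA-1 WT and of GATA-1 2RA against the control stood above it.

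Scaling bears on these counts. TMM factors computed over the 1157 listed genes with a level in every group would move the log2 changes of a pair by -0.65 (GATA-1 WT against control) to 0.41 (GATA-1 V205M against GATA-1 WT), although these genes were chosen by the authors' filter. With that scaling the listed genes still past 2-fold were 11 higher and 18 lower in GATA-1 WT, and 6 higher and 9 lower in GATA-1 2RA, each against the control. Those under 2-fold with TMM scaling were Slc7a5, Slc25a11, Slc25a21 and Slc38a10 in GATA-1 2RA, and Slc7a6, Slc16a10, Slc25a17, Slc25a21, Slc30a9, Slc31a1, Slc38a10 and Slc43a3 in GATA-1 WT. The shift was negative in both pairs, so the counts of lower genes could not fall. Genes not listed that may pass 2-fold with this scaling were not counted. With the authors' scaling, the median log2 change against the control over the solute carrier genes with both levels was 0.25 in GATA-1 2RA (30 genes), against 0.40 over all 1580 genes with both levels, and 0.42 in GATA-1 V205M (27 genes), against 0.25 over all 1813. In GATA-1 WT it was 0.10 (40 genes), against 1.05 over all 2040. No gene lay near 0.10, the middle of a gap between Slc25a42 (-0.35) and Slc7a5 (0.56). The median also depends on the genes left out by the rule. With wild-type GATA-1, Slc4a1 (527 scaled reads, control 5.80), Slc2a3 (1440, control 9.02), Slc25a37 (443, control 83.5) and Slc25a38 (816, control 63.2) were up. Slc40a1 was down (332, control 394). Including these genes would raise the median, so 0.10 does not show a shortfall of the whole family. Against GATA-1 WT the medians were -0.04 for GATA-1 2RA and -0.19 for GATA-1 V205M, with -0.14 and -0.40 over all genes, and GATA-1 2RA against GATA-1 V205M gave -0.12, with 0.15 over all genes.

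**Figure D1:**
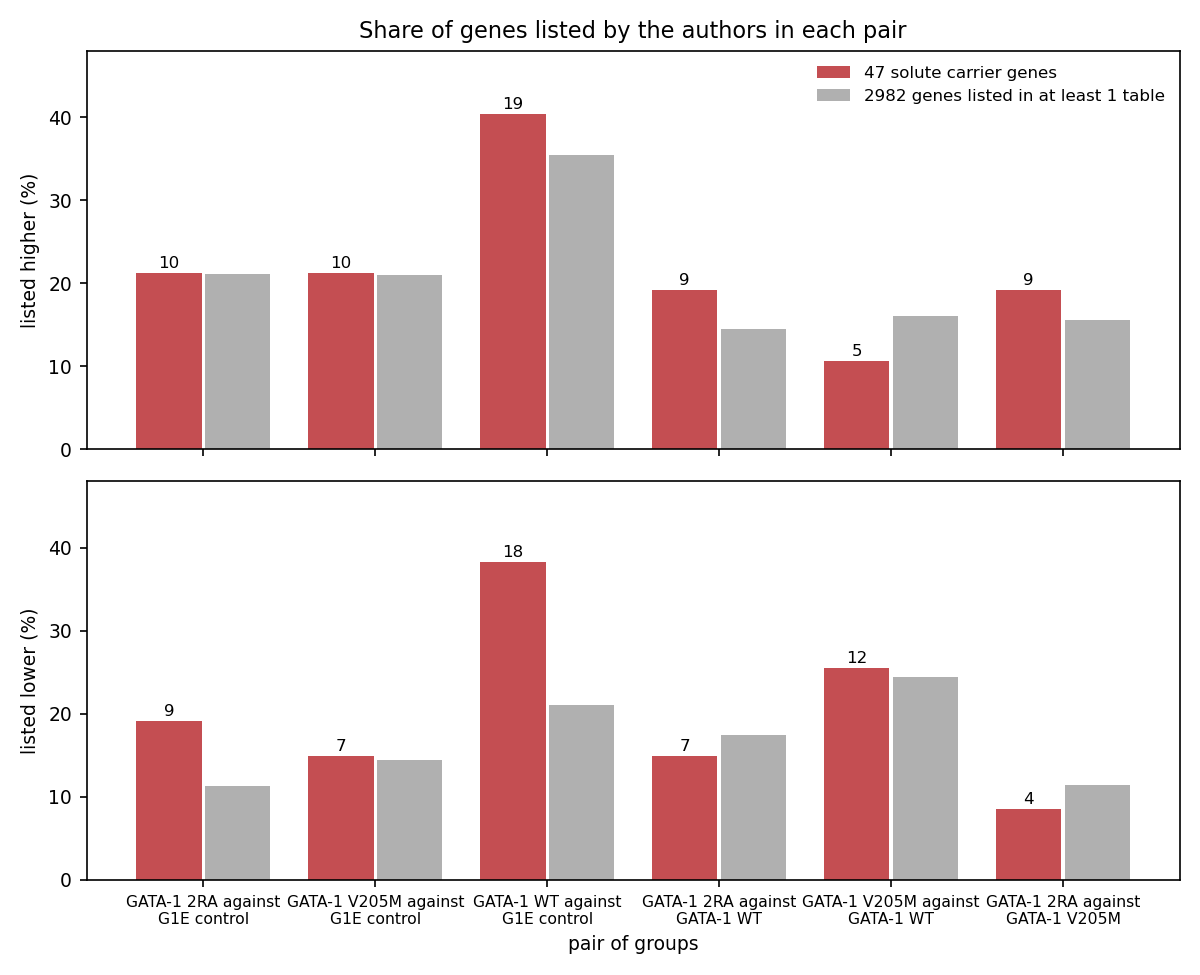
Percent of genes listed by the authors as higher (top) or lower (bottom) in each pair of groups, for the 47 solute carrier genes (red, with the number of genes above each bar) and for the 2982 genes listed in at least 1 table (grey). The gap is widest for genes lower in GATA-1 WT than in the G1E control, 38.3% of the solute carrier genes against 21.1%.

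A level in each of the 4 groups was known for 23 of the 47 genes. GATA-1 2RA was the highest group for 4 of them (17.4%, against 22.7% of the 1157 genes with 4 levels), GATA-1 V205M for 6 (26.1%, against 16.1%), GATA-1 WT for 8 (34.8%, against 40.8%) and the G1E control for 5 (21.7%, against 20.4%). The lowest group was the G1E control for 11 of the 23 (47.8%, against 37.7%) and GATA-1 V205M for 2 (8.70%, against 19.97%). These ranks follow the authors' scaling. TMM factors were lowest for the G1E control (0.790) and highest for GATA-1 WT (1.24). That scaling would raise the control relative to every form, and the ranks were not recomputed with it. Among the genes highest in GATA-1 V205M were Slc7a5, Slc7a6, Slc7a8 and Slc43a2, which carry amino acids, and Slc25a17.

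**Figure D2:**
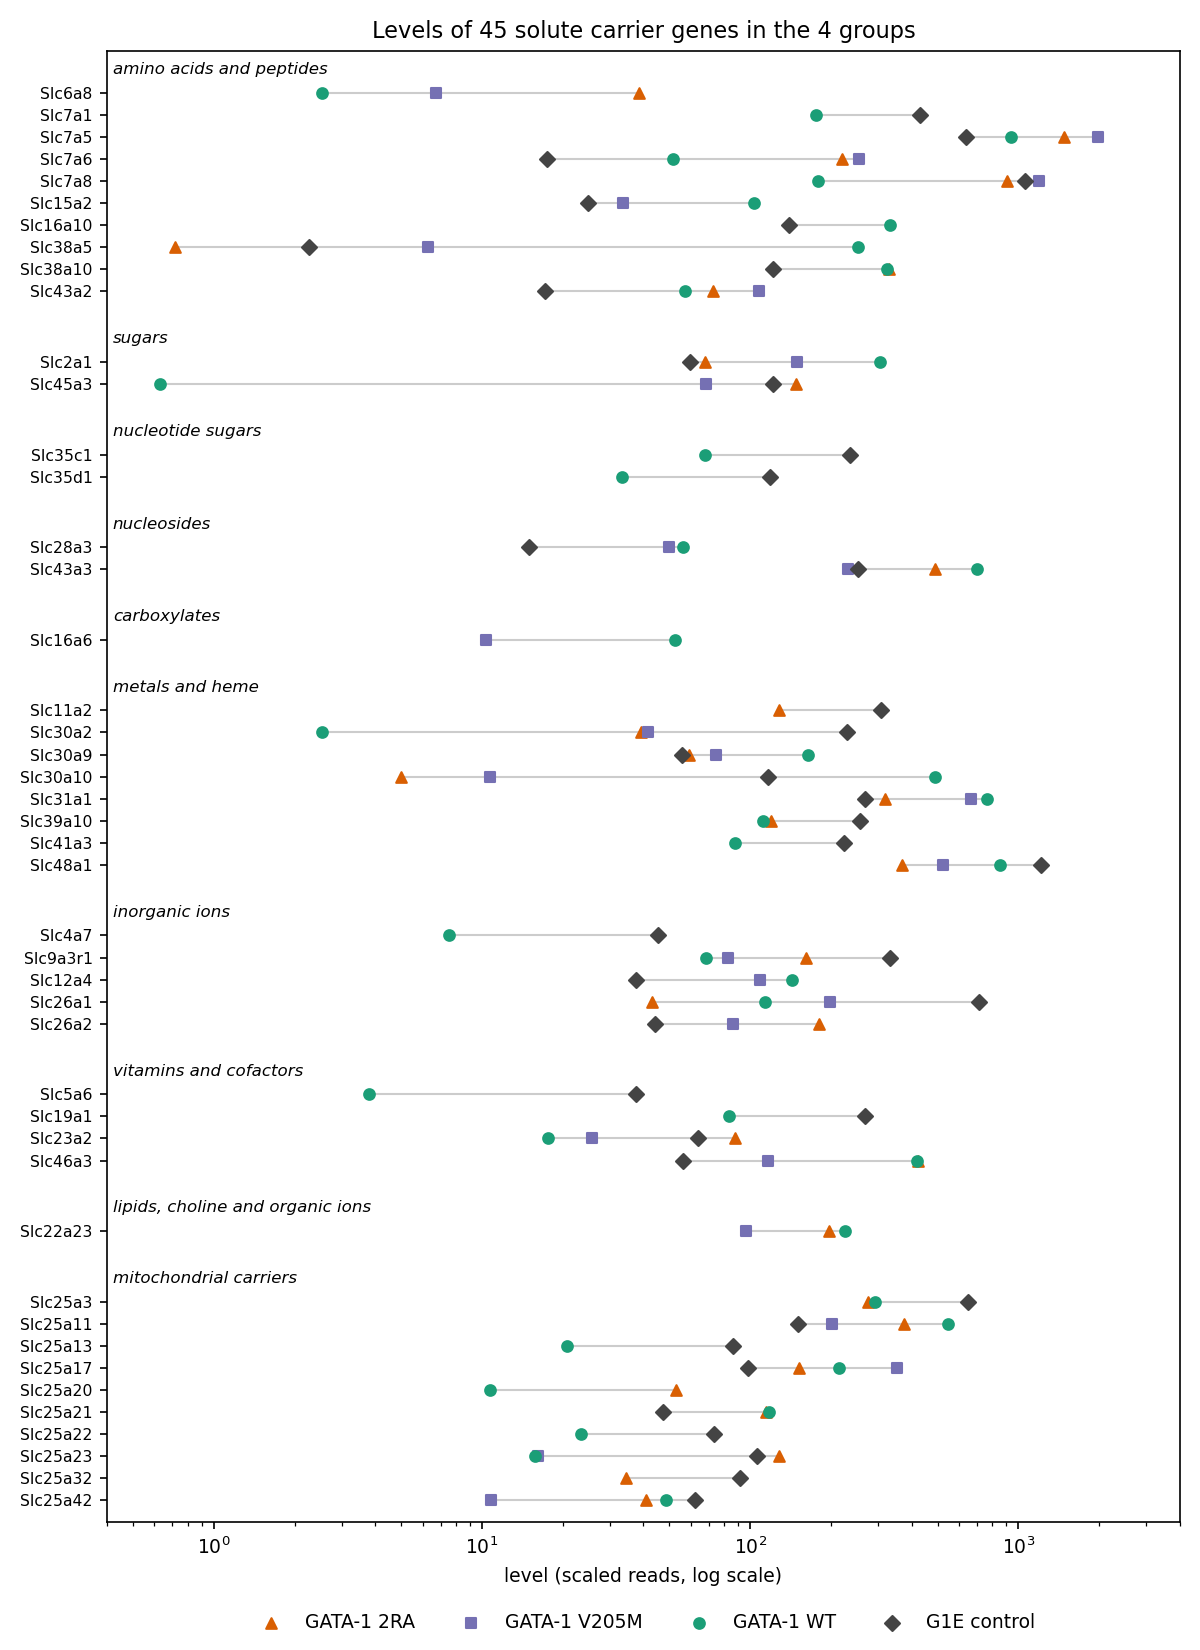
Level of 45 of the solute carrier genes in scaled reads (log axis) by group, arranged by substrate class, with a grey line over each gene's range and no symbol where a level is not known. Slc38a5, Slc45a3, Slc30a10 and Slc30a2 span the widest ranges, and GATA-1 WT is at one end of each of them.

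The widest ranges belonged to 4 genes, an amino acid transporter, a relative of sugar transporters and 2 metal transporters. Slc38a5 had 0.714 scaled reads in GATA-1 2RA, 6.30 in GATA-1 V205M, 252 in GATA-1 WT and 2.26 in the G1E control. It was thus high in GATA-1 WT alone. The GATA-1 2RA level rests on 1 read and the control level on 2 and 1 reads in its count columns. GATA-1 WT stood 112-fold above the control (95% counting interval 43.5 to 624), and Slc38a5 was 353-fold lower in GATA-1 2RA than in GATA-1 WT (62.9 to 13963) and 39.98-fold lower in GATA-1 V205M than in GATA-1 WT (22.9 to 71.8). Neither mutant was listed against the control for this gene.

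Slc45a3 ran the other way, with 148 scaled reads in GATA-1 2RA, 68.5 in GATA-1 V205M, 0.630 in GATA-1 WT and 122 in the G1E control. A single read was counted in GATA-1 WT. Over GATA-1 WT, the ratio of GATA-1 2RA was 235 (95% counting interval 41.7 to 9318), the ratio of GATA-1 V205M was 109 (19.2 to 4322), and GATA-1 WT was 194-fold lower than the control (38.4 to 8595). Both mutants had a level within 2-fold of the control, and a same-strand transcript, Gm29103, shares exonic bases with Slc45a3. The 2 count columns of the control differed for Slc45a3, at 149 and 95.1 scaled reads.

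Slc30a10 belongs to the zinc transporter family by sequence and is known in mammals for exporting manganese. It had 5.001 scaled reads in GATA-1 2RA, 10.7 in GATA-1 V205M, 489 in GATA-1 WT and 117 in the G1E control. GATA-1 WT was 4.19-fold above the control (95% counting interval 3.33 to 4.60), while Slc30a10 in GATA-1 2RA was 23.3-fold (11.9 to 63.1) and in GATA-1 V205M 10.9-fold (7.62 to 19.0) below the control. The mutants were thus listed on the opposite side of the control from GATA-1 WT. Against GATA-1 WT the gene was 97.9-fold lower in GATA-1 2RA (47.3 to 244) and 45.6-fold lower in GATA-1 V205M (30.4 to 73.0).

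Slc30a2 loads zinc into vesicles. It had 39.3 scaled reads in GATA-1 2RA, 41.7 in GATA-1 V205M, 2.52 in GATA-1 WT and 229 in the G1E control. All 3 forms were below the control, GATA-1 WT by 90.9-fold (95% counting interval 35.2 to 335) on 4 reads, GATA-1 2RA by 5.83-fold (4.37 to 7.89) and GATA-1 V205M by 5.50-fold (4.39 to 7.10). GATA-1 2RA stood 15.6-fold (5.76 to 59.3) above GATA-1 WT, GATA-1 V205M stood 16.5-fold (6.16 to 61.3) above it, and the mutants were not listed against each other. Each of the 5 listed mast cell markers was also lowest in GATA-1 WT, with the highest group differing between them as given above, and their part in the Slc30a2 and Slc45a3 levels was not tested.

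**Figure D3:**
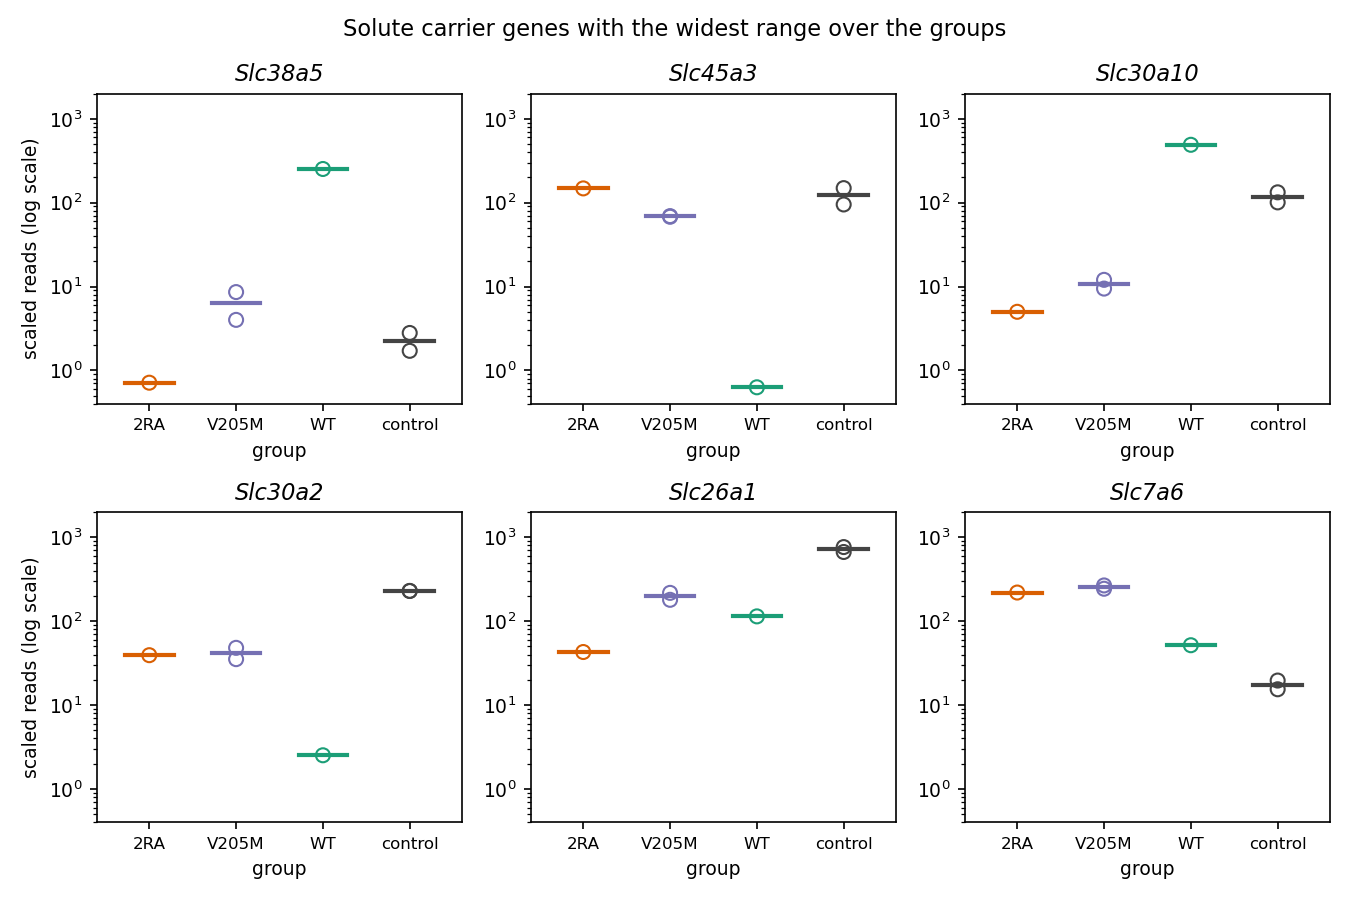
Scaled reads (log axis) of the 6 solute carrier genes with the widest range over the groups; circles are count columns (2 each in V205M and control, 1 each in 2RA and WT) and bars the authors' group levels. Slc38a5 and Slc30a10 peak in GATA-1 WT at 252 and 489 scaled reads, and Slc45a3 and Slc30a2 are lowest there at 0.630 and 2.52.

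GATA factors are known to bind a short motif, searched here as AGATAA (with its variant ending in G, AGATAG) and as TGATAA (with the like variant TGATAG), on both strands, in the 250 bases before each RefSeq start site (GRCm38.p6), for which 37 of the 47 genes had an entry. At least 1 match was found for 7 genes (18.9%), against 22.0% of the 1984 genes of the tables with an entry and 29.7% of all 27025 genes with one. The 3 promoters below show the match for a gene high in GATA-1 WT and low in both mutants (Slc30a10), a gene high in GATA-1 WT with a match on each strand (Slc15a2) and a gene low in GATA-1 WT (Slc23a2). None of these windows overlaps an annotated exon, capitals mark the matches, and each is printed 5′ to 3′ on the gene's strand.
Slc30a10, chr1:185454598-185454847, plus strand: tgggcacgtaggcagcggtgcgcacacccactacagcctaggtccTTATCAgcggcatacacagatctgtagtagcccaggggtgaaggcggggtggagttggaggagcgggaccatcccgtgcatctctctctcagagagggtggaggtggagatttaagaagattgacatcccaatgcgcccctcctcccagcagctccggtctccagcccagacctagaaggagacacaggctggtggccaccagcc
Slc15a2, chr16:36784963-36785212, minus strand: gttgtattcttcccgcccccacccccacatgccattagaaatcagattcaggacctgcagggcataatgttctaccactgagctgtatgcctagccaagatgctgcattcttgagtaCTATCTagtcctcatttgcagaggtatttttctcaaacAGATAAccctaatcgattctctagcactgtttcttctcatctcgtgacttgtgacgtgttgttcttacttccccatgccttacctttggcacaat
Slc23a2, chr2:132145321-132145570, minus strand: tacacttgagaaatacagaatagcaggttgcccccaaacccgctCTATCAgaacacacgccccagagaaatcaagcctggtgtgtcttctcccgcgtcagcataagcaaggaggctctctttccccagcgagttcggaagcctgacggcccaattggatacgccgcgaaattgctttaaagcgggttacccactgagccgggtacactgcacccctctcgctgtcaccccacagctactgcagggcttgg
The match of Slc30a10 reads TGATAA on the other strand. Slc15a2 has AGATAA at 95 bases and, at 133 bases, AGATAG on the other strand. Slc23a2 has TGATAG on the other strand, 206 bases before one of its RefSeq starts and outside the 250-base window of the other. Of these 7, the genes not printed were Slc26a1, Slc35c1, Slc39a10 and Slc45a3. Slc38a5 and Slc30a2, with ranges among the widest, had no match in this window. For both, however, the window overlaps an annotated exon and lies almost wholly after the gene start in GENCODE. The sequence before that start was thus hardly searched for these genes. A match is a description of sequence and not a binding site.

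Amino acid and peptide carriers were the largest class together with the mitochondrial carriers, with 10 genes each. In GATA-1 WT against the control 6 of the 10 amino acid genes were listed higher and 2 lower (35.4% and 21.1% of all listed genes). GATA-1 2RA had 4 higher and 0 lower against the control (21.1% and 11.3% of all), and GATA-1 V205M 3 higher and 0 lower (21.0% and 14.4% of all). Counts in a class of 10 or fewer genes are a description. Against the control, each class below has these same shares of all listed genes as its background. Against GATA-1 WT, 3 were higher and 1 lower in GATA-1 2RA (14.5% and 17.5% of all), and 3 higher and 2 lower in GATA-1 V205M (16.1% and 24.5% of all). Slc7a5 is the large neutral amino acid transporter LAT1, which imports leucine. It had 1476 scaled reads in GATA-1 2RA, 1982 in GATA-1 V205M, 940 in GATA-1 WT and 638 in the G1E control. GATA-1 V205M was 3.11-fold above the control (95% counting interval 2.76 to 3.17) and 2.11-fold above GATA-1 WT (1.98 to 2.23), and GATA-1 2RA was 2.31-fold above the control (2.05 to 2.39), a log2 change of 1.21 that was 0.75 with TMM scaling. For GATA-1 WT the 1.47-fold difference from the control was not listed.

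Slc7a6 exchanges cationic for neutral amino acids. Its levels were 219 scaled reads in GATA-1 2RA, 255 in GATA-1 V205M, 51.6 in GATA-1 WT and 17.5 in the G1E control. Every form was listed above the control, by 12.5-fold in GATA-1 2RA (95% counting interval 8.89 to 21.0), 14.6-fold in GATA-1 V205M (10.5 to 24.3) and 2.95-fold in GATA-1 WT (1.99 to 5.15). Both mutants were also listed above GATA-1 WT, by 4.25-fold (3.32 to 5.49) in GATA-1 2RA and 4.94-fold (3.92 to 6.32) in GATA-1 V205M. Slc7a8, the related light chain LAT2, had 909 scaled reads in GATA-1 2RA, 1199 in GATA-1 V205M, 180 in GATA-1 WT and 1059 in the G1E control. It was low in GATA-1 WT alone, 5.90-fold below the control (5.35 to 6.90), while GATA-1 2RA was 5.07-fold (4.45 to 5.78) and GATA-1 V205M 6.68-fold (5.93 to 7.60) above GATA-1 WT.

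Slc6a8, the creatine transporter, was high in GATA-1 2RA, with 38.6 scaled reads there, 6.73 in GATA-1 V205M and 2.52 in GATA-1 WT. No level is known for the control. GATA-1 2RA was 15.3-fold above GATA-1 WT (95% counting interval 5.65 to 58.2) and 5.73-fold above GATA-1 V205M (3.09 to 10.6), on 54, 15 and 4 reads in GATA-1 2RA, GATA-1 V205M and GATA-1 WT. The V205M reads were 11 and 4 in the 2 count columns, and without column 1 the log2 change between the mutants was 2.98 in place of 2.36. Slc43a2, an exporter of neutral amino acids also called LAT4, had 72.9 scaled reads in GATA-1 2RA, 108 in GATA-1 V205M, 57.3 in GATA-1 WT and 17.2 in the G1E control, and was listed above the control in each form. The control columns of Slc43a2 held 27 and 4 reads, a 2.07-fold difference after scaling. The peptide transporter Slc15a2 was highest in GATA-1 WT at 103 scaled reads, against 33.5 in GATA-1 V205M and 24.8 in the G1E control. The aromatic amino acid transporter Slc16a10 stood 2.38-fold above the control in GATA-1 WT (2.01 to 2.78), and Slc7a1, which imports arginine and lysine, stood 2.45-fold below it (2.07 to 2.75). Slc38a10 stood at 331 and 324 scaled reads in GATA-1 2RA and GATA-1 WT, against 121 in the G1E control.

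**Figure D4:**
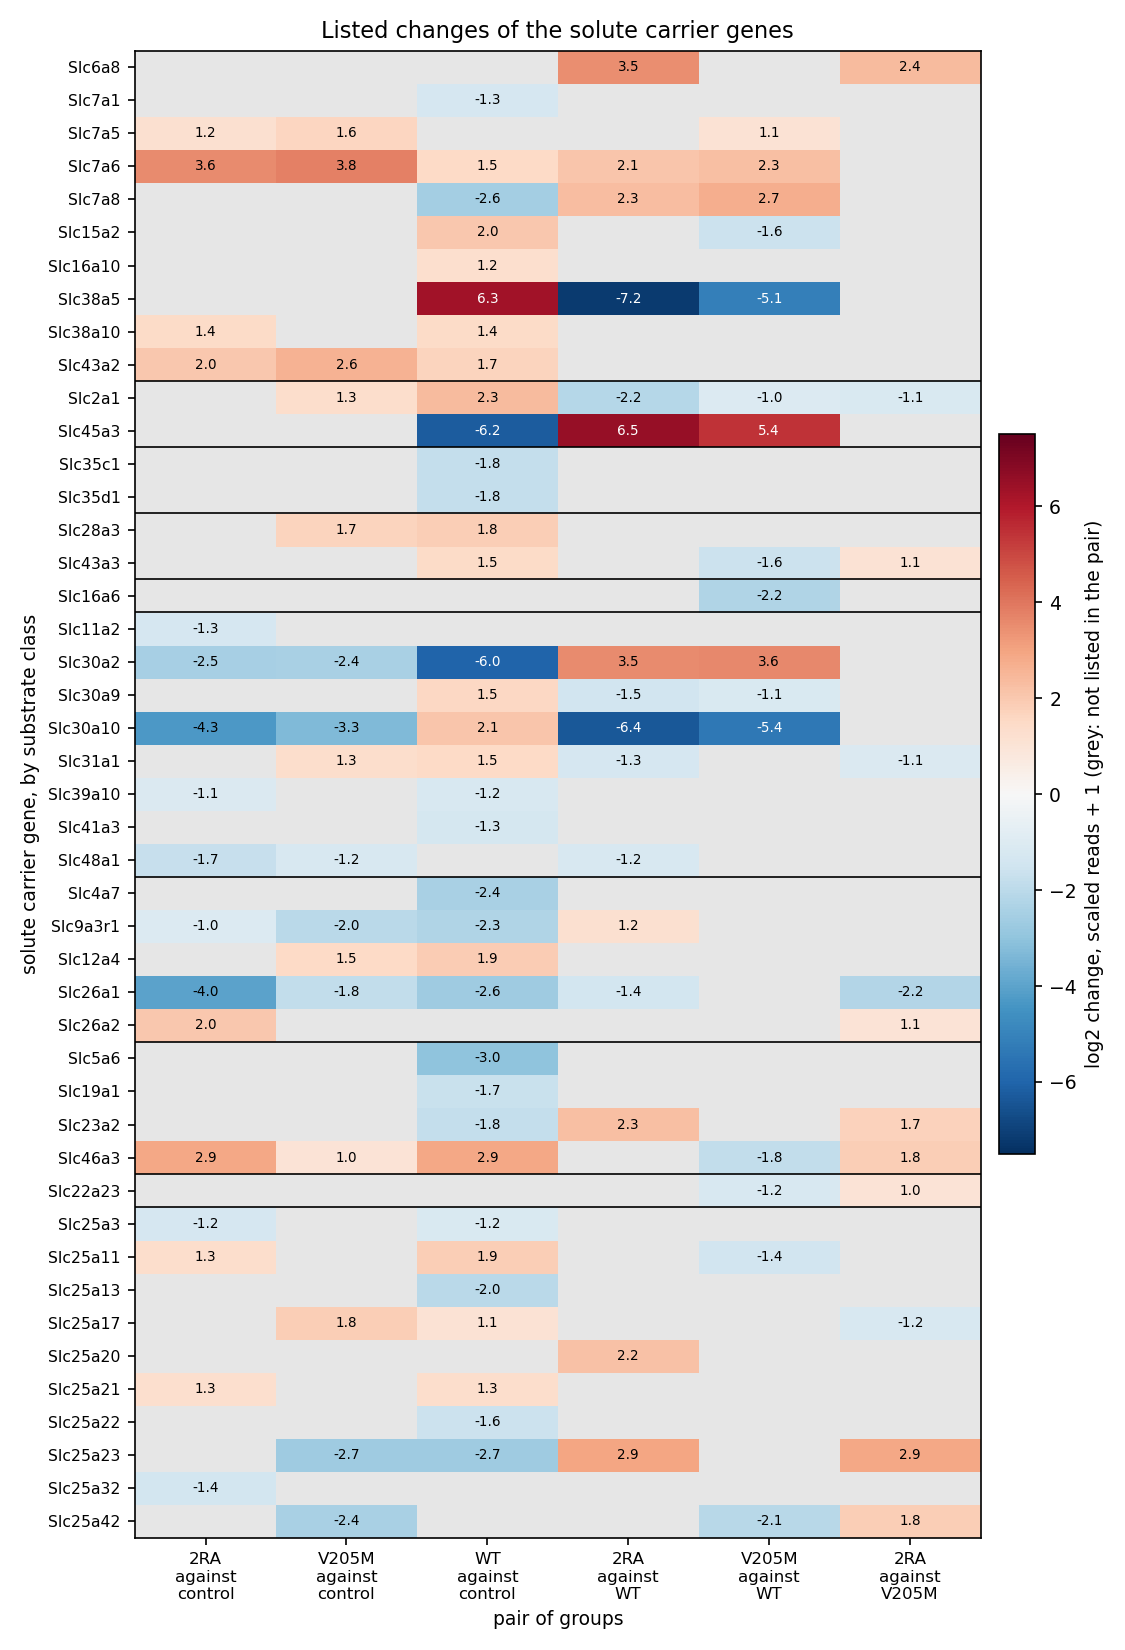
Log2 change of scaled reads plus 1 for 45 of the solute carrier genes (rows, with lines between substrate classes) in each of the 6 pairs of groups (columns), red for higher and blue for lower in the first-named group, grey where the pair was not listed. Slc38a5 reads 6.3 in GATA-1 WT against control and -7.2 in GATA-1 2RA against GATA-1 WT, and Slc45a3 shows the opposite signs.

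Carriers of sugars, nucleotide sugars, nucleosides and carboxylates made up 7 genes. Slc2a1, the basal glucose transporter GLUT1, had 67.9 scaled reads in GATA-1 2RA, 150 in GATA-1 V205M, 306 in GATA-1 WT and 59.4 in the G1E control. GATA-1 WT was 5.15-fold above the control (95% counting interval 3.83 to 5.98) and GATA-1 V205M 2.53-fold (1.88 to 2.99), while the 1.14-fold ratio of GATA-1 2RA to the control was not listed. Slc2a1 was 4.51-fold lower in GATA-1 2RA than in GATA-1 WT (3.61 to 5.68) and 2.21-fold lower than in GATA-1 V205M (1.77 to 2.84). The carriers of GDP-fucose (Slc35c1) and of UDP-sugars (Slc35d1) were listed for 1 pair each. Slc35c1 was 3.45-fold (2.99 to 4.64) and Slc35d1 3.56-fold (2.46 to 4.66) lower in GATA-1 WT, each against the control.

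Slc43a3 carries purine nucleobases. It had 487 scaled reads in GATA-1 2RA, 233 in GATA-1 V205M, 699 in GATA-1 WT and 253 in the G1E control. GATA-1 V205M thus lay beside the control, and the gene was 3.01-fold lower in GATA-1 V205M than in GATA-1 WT (95% counting interval 2.70 to 3.34). The concentrative nucleoside transporter Slc28a3 had 49.7 scaled reads in GATA-1 V205M and 56.1 in GATA-1 WT, against 14.9 in the G1E control. Slc16a6, of the monocarboxylate transporter family, was listed for 1 pair, with 10.3 scaled reads in GATA-1 V205M and 52.3 in GATA-1 WT. Slc16a6 is 1 of 17 genes that share exonic bases with another annotated gene, 1052 bases in its case. Others are Slc2a1, Slc5a6, Slc11a2, Slc12a4, Slc25a11, Slc25a21, Slc25a23, Slc26a1, Slc28a3, Slc30a10, Slc38a10, Slc43a2, Slc45a3 and Slc48a1, and reads of the paired genes may not be separable.

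Among the 8 genes for metals and heme, GATA-1 WT had 3 listed higher and 3 lower than the control (35.4% and 21.1% of all listed genes), GATA-1 2RA 0 higher and 5 lower (21.1% and 11.3%), and GATA-1 V205M 1 higher and 3 lower (21.0% and 14.4%). Against GATA-1 WT, GATA-1 2RA had 1 higher and 4 lower (14.5% and 17.5%), and GATA-1 V205M had 1 higher and 2 lower (16.1% and 24.5%). Slc48a1, known as HRG1, moves heme out of endosomes and lysosomes. It had 368 scaled reads in GATA-1 2RA, 524 in GATA-1 V205M, 853 in GATA-1 WT and 1217 in the G1E control. GATA-1 2RA was 3.31-fold (95% counting interval 3.14 to 3.82) and GATA-1 V205M 2.32-fold (2.26 to 2.62) below the control, and GATA-1 2RA was also 2.32-fold below GATA-1 WT (2.09 to 2.57). The 1.43-fold lower level of GATA-1 WT was not listed against the control.

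Slc31a1, the copper importer CTR1, had 317 scaled reads in GATA-1 2RA, 668 in GATA-1 V205M, 765 in GATA-1 WT and 268 in the G1E control. GATA-1 V205M and GATA-1 WT were 2.49-fold (95% counting interval 2.26 to 2.83) and 2.85-fold (2.58 to 3.24) above the control, and GATA-1 2RA was 2.11-fold below GATA-1 V205M (1.89 to 2.35). The zinc transporter Slc30a9 was highest in GATA-1 WT, with 59.3 scaled reads in GATA-1 2RA, 74.4 in GATA-1 V205M, 164 in GATA-1 WT and 55.8 in the G1E control. The remaining 3 metal genes were listed only as lower than the control. The zinc importer Slc39a10 had 120 and 111 scaled reads in GATA-1 2RA and GATA-1 WT, against 256 in the G1E control. The divalent metal transporter Slc11a2, also called DMT1, had 129 scaled reads in GATA-1 2RA, against 308 in the G1E control. Slc41a3, of the magnesium transporter family, had 87.5 scaled reads in GATA-1 WT, against 223 in the G1E control.

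Inorganic ion carriers numbered 7 with the scaffold Slc9a3r1, and GATA-1 WT had 3 listed higher and 3 lower than the control. Slc26a1 exchanges sulfate and oxalate. It had 42.9 scaled reads in GATA-1 2RA, 198 in GATA-1 V205M, 114 in GATA-1 WT and 716 in the G1E control. Every form was listed below the control, GATA-1 2RA by 16.7-fold (95% counting interval 12.4 to 21.2), GATA-1 V205M by 3.61-fold (3.13 to 3.93) and GATA-1 WT by 6.28-fold (5.16 to 7.13). GATA-1 2RA was also listed below GATA-1 WT, by 2.66-fold (1.98 to 3.62), and below GATA-1 V205M, by 4.63-fold (3.50 to 6.13). Slc26a1 shares 141 exonic bases with Idua on the opposite strand. The other sulfate transporter of the family, Slc26a2, had 180 scaled reads in GATA-1 2RA, where Slc26a1 was lowest. It had 86.3 in GATA-1 V205M and 44.2 in the G1E control, and its level in GATA-1 WT is not known.

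Slc12a4 is the potassium-chloride cotransporter KCC1, which lowers cell volume. It had 109 scaled reads in GATA-1 V205M and 144 in GATA-1 WT, against 37.7 in the G1E control. Slc9a3r1, the scaffold, was listed below the control in each form, with 162 scaled reads in GATA-1 2RA, 82.7 in GATA-1 V205M, 68.7 in GATA-1 WT and 333 in the G1E control. The bicarbonate cotransporter Slc4a7 had 7.56 scaled reads in GATA-1 WT, against 45.4 in the G1E control.

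Of the 4 genes classed by symbol as vitamin and cofactor carriers, 3 were listed lower and 1 higher in GATA-1 WT, set against the control. The gene listed higher was the lysosomal carrier Slc46a3, whose substrate these data do not show. The genes for the biotin and pantothenate transporter (Slc5a6) and the reduced folate carrier (Slc19a1) were 9.94-fold (95% counting interval 4.20 to 27.6) and 3.24-fold (2.97 to 4.42) lower in GATA-1 WT. The control value of Slc19a1 came from count columns at 328 and 210 scaled reads. Slc23a2, which imports ascorbate, had 87.9 scaled reads in GATA-1 2RA, 25.8 in GATA-1 V205M, 17.6 in GATA-1 WT and 64.0 in the G1E control. It was 4.98-fold above GATA-1 WT (3.28 to 7.80) and 3.41-fold above GATA-1 V205M (2.45 to 4.74) in GATA-1 2RA, so that GATA-1 2RA stood nearer to the control than the other forms did. Slc46a3 had 422 scaled reads in GATA-1 2RA, 117 in GATA-1 V205M, 419 in GATA-1 WT and 56.0 in the G1E control. GATA-1 2RA and GATA-1 WT were 7.52-fold (6.28 to 10.1) and 7.48-fold (6.26 to 10.1) above the control, with GATA-1 V205M between them and the control at 2.08-fold (1.69 to 2.83). Slc22a23, of the organic ion transporter family and without a known substrate, had 197 scaled reads in GATA-1 2RA, 96.6 in GATA-1 V205M and 225 in GATA-1 WT.

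Genes of the Slc25 family, which exchange metabolites across the inner mitochondrial membrane, went both ways. In GATA-1 WT against the control 3 were listed higher and 4 lower, in GATA-1 2RA 2 higher and 2 lower, and in GATA-1 V205M 1 higher and 2 lower. Slc25a23 carries ATP-magnesium against phosphate. It had 128 scaled reads in GATA-1 2RA, 16.1 in GATA-1 V205M, 15.7 in GATA-1 WT and 106 in the G1E control. GATA-1 2RA stood near the control, and was 7.94-fold above GATA-1 V205M (95% counting interval 5.47 to 11.7) and 8.12-fold above GATA-1 WT (5.33 to 12.9). Slc25a42, the carrier of coenzyme A, was instead low in GATA-1 V205M, with 40.7 scaled reads in GATA-1 2RA, 10.8 in GATA-1 V205M, 48.5 in GATA-1 WT and 62.2 in the G1E control. The GATA-1 V205M level rests on 17 and 7 reads in its count columns.

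Slc25a17 is a peroxisomal member of the family that carries cofactors. It was highest in GATA-1 V205M, with 151 scaled reads in GATA-1 2RA, 353 in GATA-1 V205M, 214 in GATA-1 WT and 98.4 in the G1E control. The oxoglutarate carrier Slc25a11 had 374 scaled reads in GATA-1 2RA, 201 in GATA-1 V205M, 547 in GATA-1 WT and 151 in the G1E control, and GATA-1 WT was 3.63-fold above the control (95% counting interval 3.14 to 4.23). Slc25a21, which carries oxoadipate, stood at 114 and 117 scaled reads in GATA-1 2RA and GATA-1 WT, against 47.1 in the G1E control. The acylcarnitine carrier Slc25a20 was listed only between GATA-1 2RA and GATA-1 WT, at 52.9 and 10.7 scaled reads. Lower than the control in GATA-1 WT were the aspartate-glutamate carrier Slc25a13 (20.8 scaled reads, against 86.2), the glutamate carrier Slc25a22 (23.3, against 73.0) and the phosphate carrier Slc25a3 (291, against 648). Slc25a3 was also listed lower in GATA-1 2RA, at 275 scaled reads, as was the folate and FAD carrier Slc25a32, at 34.3 scaled reads against 91.9 in the control.

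Per kilobase of annotated exon, which allows levels of different genes to be compared, Slc7a5 led in GATA-1 2RA (398 scaled reads per kilobase, among the 33 genes with a level) and in GATA-1 V205M (534, among 30), while Slc48a1 led in GATA-1 WT (310, among 44) and in the G1E control (442, among 43). Second places per kilobase went to Slc7a8 in GATA-1 2RA (182), GATA-1 V205M (240) and the G1E control (211), and to Slc25a11 in GATA-1 WT (258). The LAT1 and heme carriers thus had the most abundant RNA per length of these genes, in an order that depends on which genes have a level in a group.

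Other membrane transport genes were taken from lists by symbol, and their counts have as background 21.1% higher and 11.3% lower of all listed genes for GATA-1 2RA, 21.0% and 14.4% for GATA-1 V205M, and 35.4% and 21.1% for GATA-1 WT, each against the control. Of 9 V-ATPase subunits in the tables, 5 were higher and 0 lower in GATA-1 2RA than in the control, 4 and 0 in GATA-1 V205M, and 6 and 0 in GATA-1 WT. Atp6v1e1 had 112 scaled reads in GATA-1 2RA, 184 in GATA-1 V205M and 172 in GATA-1 WT, against 40.5 in the G1E control. Of 11 ABC transporters, 4 were higher and 0 lower than the control in GATA-1 2RA, 2 higher and 3 lower in GATA-1 V205M, and 6 higher and 2 lower in GATA-1 WT. The mitochondrial transporter of erythroid cells Abcb10 was highest in GATA-1 WT, with 844 scaled reads in GATA-1 2RA, 272 in GATA-1 V205M, 3195 in GATA-1 WT and 89.6 in the G1E control. Of 14 carriers and chaperones under other symbols, 2 were higher and 4 lower than the control in GATA-1 2RA, 0 higher and 7 lower in GATA-1 V205M, and 2 higher and 3 lower in GATA-1 WT. Spns2, which exports sphingosine 1-phosphate, had 485 scaled reads in GATA-1 2RA, 19.9 in GATA-1 V205M, 182 in GATA-1 WT and 190 in the G1E control. P-type pumps (9 genes) were 4 higher and 2 lower in GATA-1 2RA, 1 higher and 2 lower in GATA-1 V205M, and 3 higher and 4 lower in GATA-1 WT, each against the control, and Atp2a3, a calcium pump of the endoplasmic reticulum, had 251 scaled reads in GATA-1 2RA, 10.5 in GATA-1 V205M, 17.6 in GATA-1 WT and 76.3 in the G1E control. Of 4 aquaporins, 1 was listed above the control in GATA-1 WT (Aqp8, at 34.6 scaled reads against 1.83), 2 were lower in GATA-1 2RA, and 1 was lower in GATA-1 V205M.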

How the data were processed

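RNA of 4 G1E samples was sequenced after TruSeq RNA library preparation, per the labels' protocols. The submitters' processing notes name TopHat, Cufflinks, Cuffdiff, deepTools and mm10, without saying which made the tables' test, and tool versions were not given in the sources used here. As the values show, the signal in each deposited table is the authors' mean of read counts divided by size factors. The deposited fold is the ratio of these means, the deposited log2 value its logarithm, and each deposited p-value has an adjusted value, by Benjamini-Hochberg over 12931 genes as the ratios of both show. Whole reads were recovered for 100% of levels (tolerance 0.0001 read for groups with 1 count column, and for the others at most 1e-06 scaled reads, growing in proportion for levels above 1000), in steps tested on simulated data. The lowest recovered count was 1. Whether the 2 count columns of a group are cultures or runs is not given. They were not used as replicates.

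Changes on the log2 scale were computed after adding 1 scaled read to each level, without a filter on low levels, and 47 of 47 genes reached 10 scaled reads in some group. Intervals are exact conditional binomial (Clopper-Pearson, 95%). Coordinates and exon lengths are from GENCODE M21 (GRCm38, 47 of 47 symbols matched), and promoters from RefSeq (GRCm38.p6). Of the 47 genes, 17 share exonic bases with another annotated gene, and whether counting used strand is not given. Values of 2 of the 47 genes and of 1 marker gene are not reported here, and the counts keep all 47. Members and lists were chosen with earlier results of these data known. Levels in all groups were to be given for the 4 genes of each class with the widest range, and the others are named with the values they have. With 1 sample a group, the reported values carry no test other than the authors' listing. Alternatives were edgeR 4.0.16 (R 4.3.3) likelihood ratio tests with an assumed biological coefficient of variation, TMM scaling, other pseudocounts and limits, and leaving out count columns, with Python 3.11.15 and SciPy 1.17.1.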

Additional observations from a re-analysis of the deposited data

How the results depend on the processing

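Counts of listed solute carrier genes stayed within 1.5 times with a pseudocount of 10, a minimum of 10 scaled reads, an adjusted p below 0.001 and without either count column of GATA-1 V205M or G1E control. These recounts, and those with a 4-fold limit or TMM scaling, took only genes already listed, so they could lose genes but gain none. The minimum of 10 scaled reads removed no listed gene. A 4-fold limit left 5 higher and 3 lower in GATA-1 2RA against the control. In GATA-1 V205M it left 2 higher and 5 lower against the control, and in GATA-1 WT 6 higher and 9 lower. Against GATA-1 WT it left 8 higher and 3 lower in GATA-1 2RA, and 4 higher and 5 lower in GATA-1 V205M. Against GATA-1 V205M, 2 higher and 1 lower were left in GATA-1 2RA. The share of all listed genes past 4-fold was not computed, so these counts have no background and say nothing particular to solute carriers. TMM scaling left 6 and 11 higher in GATA-1 2RA and GATA-1 WT against the control. It turned the median change of the genes with both levels to -0.21 and -0.54 in these pairs (0.25 and 0.10 as reported), and, against GATA-1 WT, to 0.15 for GATA-1 2RA and 0.21 for GATA-1 V205M (-0.04 and -0.19); the scaling itself subtracts a constant from every gene of a pair.

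Tests of recovered reads compare libraries only. Those with edgeR took an assumed biological coefficient of variation (BCV) and an adjusted p below 0.01. At a BCV of 0.2, fewer solute carrier genes were called past 2-fold than the authors listed, in every pair and direction. A BCV of 0.4 left fewer still, and the same held over all genes. With 1 sample a group these calls rest on the assumed BCV, and their counts are not given. Of 597 recomputed changes of single genes, 0 changed sign, and 104 left their counting interval, 60 of them under TMM scaling. Only listed changes, all above 2-fold, were recomputed. Another pseudocount, or a TMM shift of -0.65 in log2 at the widest, could not turn the sign of such a change. For these settings the lack of sign changes was therefore fixed in advance. Without 1 count column, log2 changes below 1 in size were -0.93 for Slc9a3r1 in GATA-1 2RA and 0.89 and 0.91 for Slc46a3 in GATA-1 V205M against the control, -0.84 for Slc2a1, -0.92 for Slc30a9 and 0.997 for Slc7a5 in GATA-1 V205M against GATA-1 WT, and -0.92 for Slc2a1 and 0.85 for Slc22a23 in GATA-1 2RA against GATA-1 V205M. No paired analysis was possible because each group is 1 sample. Few reads limit Slc38a5, Slc45a3, Slc30a2 and Slc6a8, with 1 to 4 reads in their lowest group. Low counts also stand behind Slc5a6 (6 reads in GATA-1 WT), Slc30a10 (7 in GATA-1 2RA) and Slc4a7 (12 in GATA-1 WT).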
